A study of Homo sapiens with 33 samples.

Results

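Mock compound A1 was compared with control cells in 6 of the study's 33 arrays, 3 with A1 and 3 controls called U here, chosen by their sample titles. All 6 came from TS cells, an ALK-positive anaplastic large cell lymphoma (ALCL) line derived from Sup-M2, and all were harvested at 6 h. A1 was given at 300 nM. The other groups of the same experiment were TS cells that received the ALK inhibitors A2 or A3 at the same dose and time, 3 arrays each. U cells were untreated in the sample descriptions, whereas the design text names a control diluent for the drug experiment. The descriptions also list A1 among the ALK inhibitors, and only the design text has it as a mock compound, so the A1 arrays were examined for the changes that A2 and A3 gave. The labels do not say whether replicates came from separate cultures. The spread that the p-values rest on is therefore that between these arrays and may be technical. Whether A1 and U cells were grown, extracted or hybridised together is not given in the sources used here.

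An inactive relative of a kinase inhibitor is added to an experiment of this kind to show what exposure to a compound does apart from blocking the kinase. ALK, here as an oncogenic fusion kinase, drives growth of ALCL cells through STAT3, ERK and PI3K-AKT signalling. A separate and general response to cell stress is the integrated stress response. In it, kinases that sense amino acid shortage, misfolded protein, missing heme or viral RNA phosphorylate the translation factor eIF2, which slows protein synthesis as a whole but favours translation of the transcription factor ATF4. ATF4 then raises genes for amino acid transport, amino acid synthesis and the charging of tRNAs, together with its own regulators and partners.

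Total RNA had been hybridised to Affymetrix HG-U133A arrays, and the deposited values are MAS5 signals, which are linear intensities, 1 for each probe set. Correlations of log2 signals ran from 0.970 to 0.983 between arrays of the same group (U or A1), from 0.966 to 0.982 between an A1 and a U array, and from 0.912 to 0.932 between an A2 or A3 array and a U or A1 array. The range between A1 and U arrays thus nearly matched that between replicates. The ALCL markers TNFRSF8 (CD30), ALK, IL2RA, ICOS, GZMB, PRF1, BATF3 and IRF4 were all at or above the 40th percentile of each of the 6 arrays, with summed signals of 17029 to 18372 in U and 16829 to 17520 in A1. Of 9 measured T-cell markers, CD3D and CD5 were above that level on all 6 arrays and CD3G, CD7 and LCK below it on all 6. The summed T-cell signal was 1306 to 1586 in U and 1255 to 1544 in A1. Of the B-cell markers CD79B was below that level on all 6 arrays and CD22 above it, at 65.8 to 121.2. Of the myeloid markers CD14, LYZ and FCGR1A were below it, and CSF1R (109.4 to 131.3) and CD163 (1824 to 2121) above. Of the epithelial and stromal markers EPCAM, CDH1, KRT19 and COL3A1 were below it, and COL1A1 (125.7 to 206.5) and PECAM1 (38.5 to 101.9) above. The summed signal of the 5 measured B-cell markers was low and did not overlap, 202.3 to 248.9 in U and 146.9 to 195.9 in A1. That of the 6 myeloid markers, most of it CD163, was 2008 to 2283 in U and 2121 to 2273 in A1. The sum of the 7 epithelial and stromal markers was 245.4 to 294.4 in U and 242.9 to 418.9 in A1. The part of any of these sums in the results below was not tested.

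Few genes passed the test between A1 and U. Of 8594 genes tested, 3 (0.0349%) were called at an adjusted p below 0.05 (limma, Benjamini-Hochberg over all 8594): SLC7A11 and PSAT1 rose with A1 (0.0233% of genes) and LRRC61 fell (0.0116%). At an unadjusted p below 0.05, 328 genes were higher with A1 and 439 lower. The signal was at least 2-fold apart for 11 genes. The median difference was -0.0053 on the log2 scale, with a standard deviation over genes of 0.23. For 8049 genes (93.7%) the whole 95% interval of the difference lay within 2-fold in either direction, and the median standard error was 0.16. All fold changes here are on the scale of log2(signal + 11), which understates changes of dim genes. In the same fit, which shares its U and A1 arrays among comparisons, A2 differed from U in 3017 genes (35.1%), 19.7% of genes higher and 15.4% lower, and A3 in 2893 (33.7%), 18.8% higher and 14.9% lower.

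SLC7A11 encodes the light chain of the cystine and glutamate exchanger that supplies cysteine for glutathione. Its signal was 36.6, 51.3 and 31.6 on the U arrays and 112.6, 91.4 and 97.9 on the A1 arrays. Every A1 array lay above every U array. The log2 difference was 1.15 ± 0.19 (SE, n = 3 per group), or 2.22-fold, with an adjusted p of 0.0413 by limma. Both other probe sets of the gene pointed the same way, one at 1.64 ± 0.24 and the other at 0.20 ± 0.21. PSAT1, the aminotransferase of the serine synthesis pathway, read 303.1, 247.2 and 349.0 in U and 486.4, 561.1 and 523.6 in A1, again without overlap. Its difference was 0.79 ± 0.13 (SE, n = 3 per group), or 1.73-fold, with an adjusted p of 0.0413. LRRC61, a leucine-rich repeat protein, read 216.8, 218.9 and 228.1 in U and 117.1, 116.2 and 123.0 in A1. The 3 values of each group lay close together and the groups did not overlap. It fell by 0.84 ± 0.12 on the log2 scale (SE, n = 3 per group; adjusted p 0.0300). The calls depended on single arrays. Leaving out U replicate 2, A1 replicate 1 or A1 replicate 3 left 0 genes called by limma (623, 693 and 710 at an unadjusted p below 0.05). PSAT1 stayed called without U replicate 3 and LRRC61 without A1 replicate 2, whereas SLC7A11 lost its call whichever array was left out. Over all alternative settings in which they were tested SLC7A11 kept a difference of 0.67 to 1.34, PSAT1 of 0.67 to 0.91 and LRRC61 of -0.89 to -0.64, while their adjusted p ran from 0.0341 to 0.205, from 0.0230 to 0.201 and from 0.0118 to 0.201.

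**Figure D1:**
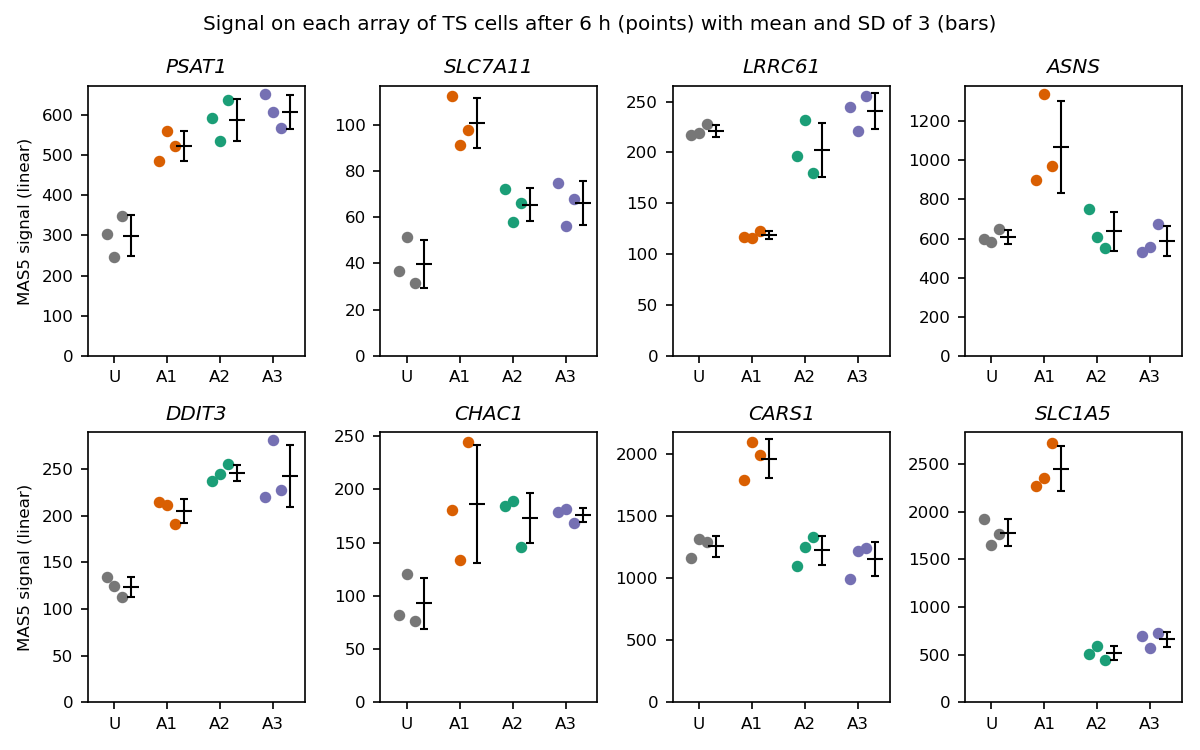
Signal of 8 genes on each array of TS cells after 6 h, on a linear axis from 0, with points for the 3 arrays of U, A1, A2 and A3 and bars for mean and SD. SLC7A11 is highest with A1 and LRRC61 lowest with A1, at 116.2 to 123.0, while PSAT1 and DDIT3 are at least as high with A2 and A3 and SLC1A5 falls far below U with both inhibitors.

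SLC7A11 and PSAT1 both belong to a list of 37 ATF4 and amino acid response genes, of which 32 were tested. Those 2 were called higher and 0 lower. All A1 arrays lay above all U arrays for 27 of the 32 genes, against 519 of all genes tested (6.04%), and none lay the other way round, against 613 of all genes (7.13%). At an unadjusted p below 0.05, 25 of the 32 were higher with A1 and 0 lower, against 3.82% and 5.11% of all genes. The list was chosen with earlier results of these data known, so these counts are not an independent test of it. All 32 differences were above 0, from 0.087 to 1.15, with a median of 0.47, against a median of -0.0053 over all genes. The members' 16 further probe sets, of 11 genes, were all higher with A1 as well. The median of the list, set against the mean of U, was -0.022 to 0.016 on the 3 U arrays and 0.41, 0.38 and 0.49 on the A1 arrays, so that each A1 array showed it. Under the alternative pseudocounts, filters and scalings, the number of genes without overlap stayed between 25 and 28. With any 1 array of U or A1 left out it was 27 to 30. Among the same genes, leaving out an array can only keep or add genes without overlap, so those counts do not test stability.

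**Figure D2:**
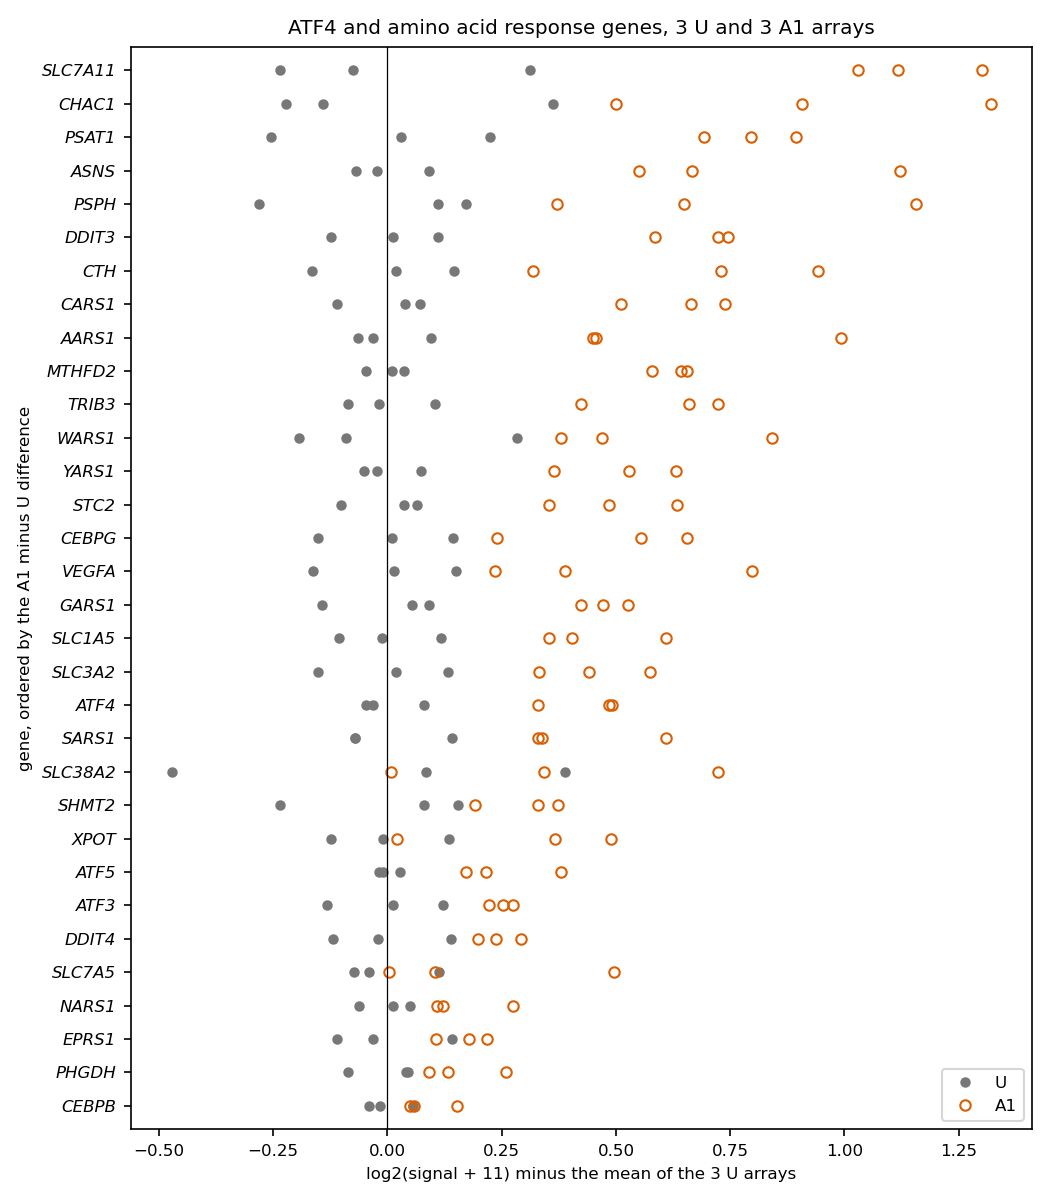
Each row is 1 of the 32 tested ATF4 and amino acid response genes and each point is 1 array, as log2(signal + 11) minus the mean of the 3 U arrays, with filled points for U and open ones for A1. For 27 genes all open points lie to the right of all filled points, and only SLC7A11 and PSAT1 passed the adjusted test.

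The promoters of the list were searched for the core of the element that ATF4 binds together with C/EBP partners. The motif was TGATGNAA, read on both strands, in windows from 250 bases before to 50 after the start site from RefSeq (GRCh38.p14). It was chosen with the expression values known, and a match is only a match of letters. It was present in 7 of the 27 tested members that had a window (25.9%), in 142 of 7092 tested genes with a window (2.0%) and in 1270 of all 35116 windows (3.62%). The members with a match were CHAC1, ASNS, CARS1, AARS1, SLC3A2, ATF3 and NARS1. The list was made of genes already known to belong to the ATF4 response, so a share above that of all genes could be foreseen. The shares therefore say nothing about A1. The 250 bases before the start site are given for CHAC1, ASNS and AARS1, an enzyme that breaks down glutathione, an enzyme that makes asparagine and one that charges tRNA with alanine, because the match lies wholly upstream in each and each differed from U by 0.63 or more on the log2 scale. Sequences run 5′ to 3′ on the gene's strand, and capitals mark the motif or its reverse complement.
CHAC1, chr15:40953221-40953470, plus strand: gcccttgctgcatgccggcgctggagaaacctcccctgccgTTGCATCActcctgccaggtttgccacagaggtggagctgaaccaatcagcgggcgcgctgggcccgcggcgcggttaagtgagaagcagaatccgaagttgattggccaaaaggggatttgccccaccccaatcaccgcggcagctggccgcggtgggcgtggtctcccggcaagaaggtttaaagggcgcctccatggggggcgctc
ASNS, chr7:97872409-97872658, minus strand: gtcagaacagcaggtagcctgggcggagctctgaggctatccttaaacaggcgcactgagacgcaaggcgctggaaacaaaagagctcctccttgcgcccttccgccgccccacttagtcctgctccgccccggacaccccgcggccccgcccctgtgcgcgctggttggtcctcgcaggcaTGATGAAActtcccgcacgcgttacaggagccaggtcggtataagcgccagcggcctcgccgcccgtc
AARS1, chr16:70289507-70289756, minus strand: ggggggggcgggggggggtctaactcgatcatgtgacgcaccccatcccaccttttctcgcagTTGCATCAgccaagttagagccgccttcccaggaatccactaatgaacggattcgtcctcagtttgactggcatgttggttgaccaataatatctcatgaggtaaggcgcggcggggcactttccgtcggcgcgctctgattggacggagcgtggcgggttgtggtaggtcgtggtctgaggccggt
The capitals begin 209 bases before the start site in CHAC1, 68 in ASNS and 187 in AARS1. The ASNS match has the letters of the motif as written, and the other 2 hold its reverse complement.

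CHAC1 read 81.8, 120.5 and 76.7 in U and 180.9, 133.7 and 244.5 in A1, a difference of 0.91 ± 0.19 (SE; limma adjusted p 0.133). The groups did not overlap, but A1 replicate 2 lay near the highest U array, and without it CHAC1 was called. ASNS read 599.0, 579.9 and 649.1 in U and 896.5, 1338 and 972.0 in A1, a difference of 0.78 ± 0.15 (SE; limma adjusted p 0.0719). AARS1 read 703.9, 688.5 and 770.5 in U and 987.9, 1444 and 992.5 in A1, a difference of 0.63 ± 0.14 (SE; limma adjusted p 0.133). For ASNS and AARS1 it was A1 replicate 2 that stood highest, and the other A1 arrays still exceeded all of U.

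Among the regulators of the response, ATF4 itself read 1874, 1894 and 2048 in U and 2714, 2438 and 2726 in A1. The groups did not overlap, and the difference of 0.44 ± 0.11 (SE) had an adjusted p of 0.164 by limma. DDIT3, which encodes the transcription factor CHOP that ATF4 activates, read 134.3, 124.8 and 112.5 in U and 214.4, 211.2 and 190.9 in A1. Its difference was 0.68 ± 0.13 (SE; limma adjusted p 0.0719). TRIB3, a pseudokinase induced by ATF4 and CHOP that restrains ATF4, read 423.9, 388.6 and 369.9 in U against 657.3, 531.7 and 628.4 in A1, a difference of 0.60. CEBPG, a dimer partner of ATF4, differed by 0.48, and the stress factors ATF5 and ATF3 by 0.26 and 0.25, each without overlap. The other probe set of ATF5 gave 0.077 ± 0.14, with overlap. CEBPB, a further C/EBP factor that is itself a known target of ALK signalling, had the smallest difference of the list, 0.087 with a 95% interval of -0.13 to 0.30.

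Among the amino acid transporters, SLC3A2, the heavy chain that pairs with SLC7A11 and SLC7A5, read 430.2, 485.8 and 526.9 in U and 606.5, 719.0 and 654.8 in A1, a difference of 0.45. SLC1A5, a glutamine and neutral amino acid carrier, read 1927, 1650 and 1762 in U and 2271, 2354 and 2715 in A1, a difference of 0.46. Neither passed the adjusted test, although neither overlapped. For SLC7A5, the large neutral amino acid carrier, and SLC38A2, a carrier induced on amino acid starvation, the groups overlapped, and both 95% intervals included 0 (-0.082 to 0.48 and -0.044 to 0.76).

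Of the enzymes of serine, one-carbon and sulfur amino acid metabolism, MTHFD2, of the mitochondrial folate pathway, was tight within groups, at 1683, 1652 and 1588 in U and 2455, 2565 and 2591 in A1 (0.63 ± 0.12 SE; limma adjusted p 0.0719). PSPH, the last enzyme of serine synthesis, differed by 0.73 ± 0.20 and its second probe set by 0.84 ± 0.21. PHGDH, the first enzyme of the same pathway, differed by only 0.16, with a 95% interval of -0.086 to 0.41. The mitochondrial serine hydroxymethyltransferase SHMT2 differed by 0.30, and CTH, which makes cysteine from cystathionine, by 0.66 at a dim signal of 24.4 to 65.2.

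Aminoacyl-tRNA synthetases, which load tRNAs, gave 8 members. CARS1, the cysteine enzyme, read 1161, 1318 and 1289 in U and 1793, 2099 and 1995 in A1, a difference of 0.64 ± 0.12 (SE; limma adjusted p 0.0719), and its second probe set gave 0.71 ± 0.14. WARS1 differed by 0.56, YARS1 by 0.51, GARS1 by 0.47 and SARS1 by 0.43, each without overlap and each with an unadjusted p below 0.05. NARS1 and EPRS1 differed by 0.17 each, with intervals of -0.046 to 0.38. The further probe sets of EPRS1 gave 0.70 ± 0.21 and 0.26 ± 0.21, both with overlap. The tRNA exporter XPOT differed by 0.29 with overlap. Of the remaining members, the secreted factors STC2 and VEGFA differed by 0.49 and 0.47 and DDIT4, an inhibitor of mTORC1, by 0.24. The 3 further probe sets of VEGFA gave 0.042 to 0.20, less than its main one.

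Beside the list, GTPBP2 and NEMF, which both act on stalled ribosomes, and GOT1, an aspartate aminotransferase, were among the 12 genes named as most clearly higher with A1. GTPBP2 read 292.3, 275.6 and 277.1 in U and 380.1, 480.7 and 437.6 in A1, a difference of 0.59 (limma adjusted p 0.0719). GOT1 and NEMF differed by 0.60 and 0.62. TXNIP, which binds thioredoxin and limits glucose uptake, read 366.8, 284.0 and 261.9 in U and 416.7, 459.8 and 510.8 in A1, a difference of 0.60, and its 2 further probe sets gave 0.96 and 0.45. None of these 4 passed the adjusted test, and in none did the groups overlap.

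On the lower side, the genes named after LRRC61 did not pass, although their groups did not overlap by the rule that chose them. MEAK7, a lysosomal partner of mTOR, read 56.6, 66.1 and 48.1 in U and 29.9, 21.1 and 20.7 in A1 (-0.96 ± 0.18 SE; limma adjusted p 0.0719). CDKN1A, the cell cycle inhibitor p21, read 1113, 989.1 and 898.7 in U and 701.8, 626.9 and 765.9 in A1 (-0.51). SFN, the 14-3-3 sigma protein and like CDKN1A a p53 target, differed by -0.45, and its further probe sets gave -1.47 and -0.47. The list of p53 targets and DNA damage genes as a whole, 20 tested, had a median of -0.034. At an unadjusted p below 0.05 by limma, 2 of them were higher and 2 lower, against 3.82% and 5.11% of all genes. The chemokine receptor CCR7 read 136.4, 166.8 and 136.2 in U and 100.1, 95.3 and 95.8 in A1 (-0.54). RRAGA, a Rag GTPase that signals amino acid supply to mTORC1, read 587.6, 626.5 and 610.8 in U and 445.7, 413.8 and 430.9 in A1 (-0.49). Further genes were PTOV1 (-0.76), the nucleoside transporter SLC29A2 (-0.82), ZNF395 (-0.63), the Raf inhibitor protein PEBP1 (-0.59) and the ribosome-binding protein RRBP1 (-0.85). The other probe sets of PEBP1 gave smaller differences, -0.27 and -0.11, the latter with overlap. The probe sets of RRBP1 disagreed: 3 further ones gave -0.96, -0.55 and -0.44 and another gave 0.085.

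Glycolysis and hypoxia genes, which HIF raises at low oxygen, held 32 tested members. None was called (limma). At an unadjusted p below 0.05, 9 were lower with A1 and 2 higher, against 5.11% and 3.82% of all genes, and 9 were without overlap below U, against 7.13%. The list's median was -0.062. PFKFB4, a regulator of glycolytic flux, read 34.6, 32.8 and 54.0 in U and 15.3, 16.4 and 9.10 in A1, a difference of -1.05 ± 0.29 at a signal close to the added 11. ZNF395, induced by hypoxia, read 564.4, 496.0 and 512.3 in U and 379.7, 344.1 and 284.6 in A1 (-0.63 ± 0.14). ANGPTL4, a lipase inhibitor, differed by -0.49, NDRG1 by -0.40 and the pyruvate kinase PKM by -0.35, each without overlap. The enolase ENO2 differed by -0.41, with overlap. The glycolytic enzymes TPI1, ALDOC, PFKP and PFKL lay below U without overlap, at -0.31, -0.30, -0.28 and -0.25. LDHA, ENO1, PGK1 and GAPDH, further enzymes of that pathway, differed from U by -0.03 to 0.027, with overlap. VEGFA and the glycolytic regulator PFKFB3 were the 2 on the higher side, and VEGFA is in both lists. Without U replicate 2 the 9 lower genes became 5.

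No gene of the other lists passed the limma test, except SLC7A11 in the list of NRF2 and oxidative stress genes. In that list 2 of 24 members were higher at an unadjusted p below 0.05, SLC7A11 and the metallothionein MT1H, and 0 lower, where the shares over all genes were 3.82% higher and 5.11% lower. The same shares apply to the counts that follow. The standard NRF2 targets NQO1 and HMOX1 differed by -0.11 and -0.092, with intervals of -0.35 to 0.14 and -0.35 to 0.16. Of 23 genes of the unfolded protein response 4 were higher at that level, DDIT3, HSP90B1, HERPUD1 and EIF2AK3, and 0 lower. HSPA5, the main chaperone of the endoplasmic reticulum and a central target of that response, read 1504, 1752 and 1958 in U and 2273, 1276 and 2188 in A1, with overlap. Targets of the aryl hydrocarbon receptor, a sensor of planar aromatic compounds, gave 0 of 12 at that level in either direction, and CYP1A1 differed by 0.19 with a wide interval of -0.48 to 0.87. Of 12 drug transport and conjugation genes, 0 reached it. Heat shock genes gave 2 of 18 lower and 0 higher, with BAG3 at -0.46. G1/S and DNA replication genes gave 5 of 38 lower and 0 higher, with a median of -0.086, and POLD1 and CDT1 at -0.47 and -0.45. G2/M genes gave 2 of 47 higher and 0 lower. Of 22 genes listed under cholesterol synthesis 2 were lower, the fatty acid synthase FASN (-0.48) and the lipid regulator SREBF1 (-0.58). Neither is an enzyme of cholesterol synthesis. In the lists that are plotted but described nowhere else in the text, at most 2 members were higher and at most 3 lower at that level.

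**Figure D3:**
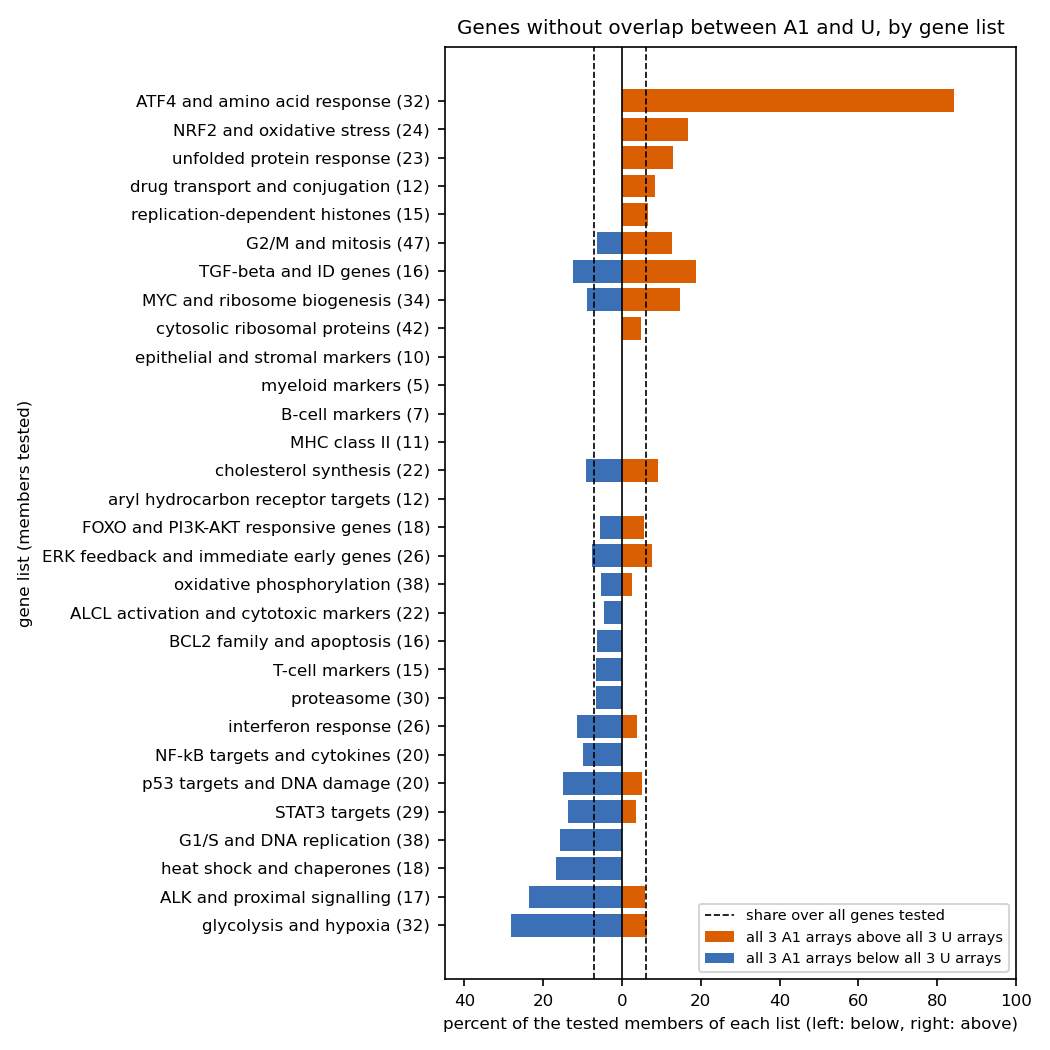
For each of 30 gene lists, with the number of members tested, the bars give the percent of members whose 3 A1 arrays all lay above (right) or all below (left) the 3 U arrays. Dashed lines mark the shares over all genes tested, 6.04% above and 7.13% below, and the bar of the ATF4 list (27 of 32 genes) reaches far beyond its line.

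Genes of the pathways that ALK drives were then read in A1 against U. ALK read 3742, 3262 and 3410 in U and 2959, 4027 and 3942 in A1, with overlap and a difference of 0.058 (95% interval -0.22 to 0.34). NPM1, whose gene is fused to ALK in many ALCL, differed by 0.20 and BCL2A1, a survival gene of the BCL2 family, by 0.21 (limma adjusted p 0.727 and 0.847). Of 29 tested STAT3 targets, 5 were lower and 2 higher at an unadjusted p below 0.05, with a median of -0.043. Over all genes 5.11% were lower and 3.82% higher at that level, the shares to set beside this count and those of the next 3 lists. Of these, CISH, a feedback inhibitor of cytokine signalling, read 1075, 1090 and 1166 in U and 826.8, 776.3 and 748.9 in A1 (-0.50). Of 26 ERK feedback and immediate early genes 2 were lower and 2 higher, with EGR1 at 0.63 and FOSL2 at -0.46. Of 17 genes of ALK and its proximal signalling 3 were lower and 1 higher, with AKT1 at -0.75 and PLCG1 at 0.57. AKT1 read 280.2, 362.3 and 582.2 in U, and without U replicate 3 its difference was -0.46. Of 34 MYC and ribosome biogenesis genes 4 were lower, among them SRM, the spermidine synthase, at -0.48, and 2 higher. None of these genes passed the adjusted test between A1 and U. With A2 and A3, CISH differed from U by -3.05 and -3.11, FOSL2 by -1.35 and -1.77 and SRM by -1.28 and -1.01. AKT1 differed by -0.30 and -0.09 and PLCG1 by 0.73 and 1.01. These 5 had the sign seen with A1. EGR1 (-2.35 and -2.09) and BCL2A1 (-2.83 and -2.81) had the opposite sign.

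The genes that the ALK inhibitors moved most were also read in A1 against U. They were the 25 highest and 25 lowest by the mean of A2 and A3 minus the mean of A1 and U. The smallest such difference was 1.62. Both their inhibitor response and their A1 values thus chose them. A gene that A1 moved the same way as A2 and A3 scored lower, so the choice itself favoured small differences between A1 and U. Between A1 and U these 50 genes ranged from -0.77 to 0.63, with medians of 0.11 for the highest and -0.11 for the lowest, and 0 of them was called (limma; 7 at an unadjusted p below 0.05). For 44 of the 50 the 95% interval between A1 and U excluded a 2-fold change, and the widest half-width was 0.83. MYC, the growth regulator, read 2715, 2701 and 2770 in U and 2723, 2408 and 2641 in A1, against 7.60 to 38.8 with A2 and 7.20 to 12.1 with A3. CCL20, a chemokine, read 863.0, 926.3 and 879.1 in U and 944.2, 911.4 and 849.4 in A1, against 2.50 to 8.40 with A2. DUSP6, the phosphatase that ERK induces against itself, read 290.1 to 369.2 in U and 329.3 to 498.9 in A1, against 1.80 to 17.4 with A2. SOCS3, the feedback inhibitor that STAT3 induces, read 264.1 to 513.5 in U and 307.1 to 419.9 in A1, against 7.20 to 29.0 with A2. BAMBI, a TGF-beta pseudoreceptor, read 112.1 to 121.2 in U and 116.5 to 123.4 in A1, against 636.7 to 836.2 with A2. Of the 20 genes plotted, 6 had no overlap between A1 and U: TXNIP, CEMIP and HBEGF lay above U with A1 and CCR7, IL10 and CD300A below. TXNIP and CCR7 were both far above U with A2 and A3 (4680 to 5545 and 745.5 to 799.2 with A2).

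**Figure D4:**
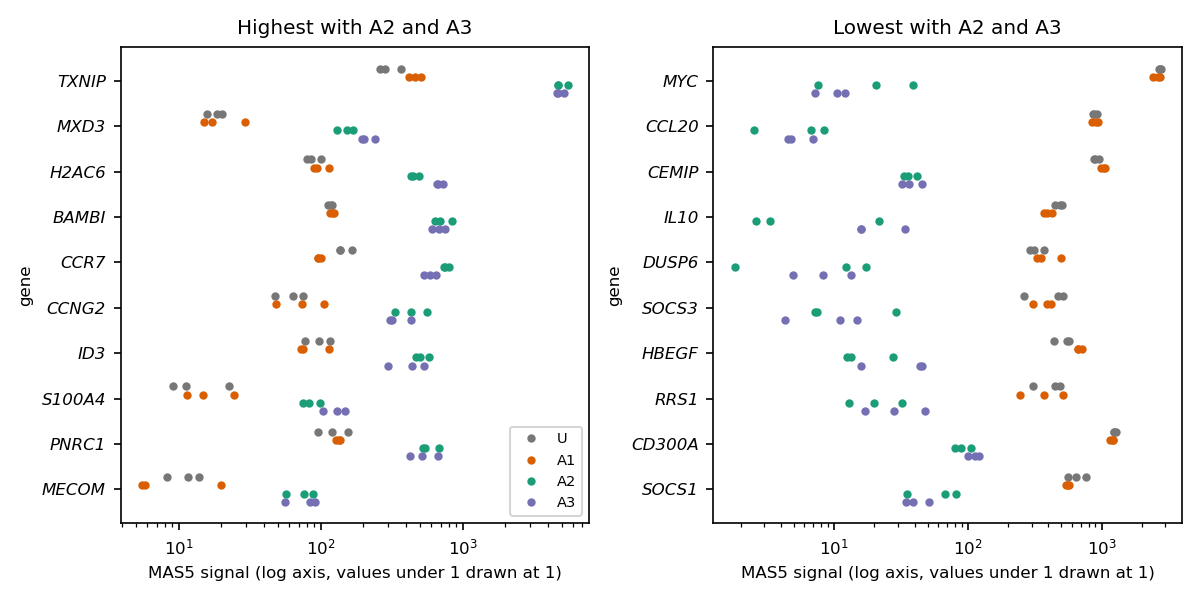
Signal on each of the 12 arrays, on a log axis, for the 10 genes highest (left) and the 10 lowest (right) with A2 and A3 relative to A1 and U, which is how they were chosen. In each row the A1 points lie much nearer to U than to A2 or A3, which the choice itself favoured. They overlap U in all but 6 genes, among them TXNIP (416.7 to 510.8 with A1) and CCR7 (95.3 to 100.1).

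The compounds were given at one dose and time, so A1 was compared directly with A2 and with A3, with p adjusted over all genes and both pairs. A2 was higher than A1 in 1640 genes (19.1%) and lower in 1228 (14.3%), and A3 was higher in 1590 (18.5%) and lower in 1220 (14.2%). Of the 32 ATF4 list genes, 16 were lower with A2 than with A1 and 1 higher, and 17 were lower with A3 and 2 higher, with median differences of -0.39 and -0.47. The ACTB 3' to 5' ratio was 1.26 to 1.40 with A1, 1.02 to 1.07 with A2 and 0.92 to 1.22 with A3, without overlap. With that ratio as a covariate 1373 genes differed between A2 and A1 and 1436 between A3 and A1, and 11 list genes were lower and 1 higher for each inhibitor, with medians of -0.32 and -0.35. ASNS fell from a mean of 1069 ± 236.3 with A1 (SD, n = 3) to 635.8 ± 101.9 with A2 and 587.9 ± 76.3 with A3, differences of -0.73 and -0.84 (limma adjusted p over both pairs 0.00120 and 3.72e-04). CARS1, MTHFD2 and TRIB3 were likewise lower with both inhibitors than with A1, with differences of -0.67 and -0.76 for CARS1, -0.67 and -0.58 for MTHFD2 and -0.89 and -0.53 for TRIB3. SLC7A11 was lower with A2 (-0.55, adjusted p 0.0359) and A3 (-0.53, 0.0394) than with A1 in the same limma fit, at means of 65.5 and 66.2. The largest gaps in the list were in SLC1A5 (-2.23 with A2 and -1.87 with A3), SLC7A5 (-1.97 and -1.84) and CEBPB (-1.51 and -1.50), for which both inhibitors also lay below U, with SLC1A5 means of 513.1 and 660.8.

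For other members no difference between the compounds was found. PSAT1 had means of 588.2 with A2 and 608.8 with A3, 0.16 and 0.21 from A1, with 95% intervals of -0.11 to 0.43 and -0.058 to 0.48. CHAC1 differed from A1 by -0.072 with A2 (-0.48 to 0.34) and -0.04 with A3 (-0.45 to 0.37). DDIT3 differed by 0.25 (-0.021 to 0.52) and 0.22 (-0.047 to 0.49). The differences of all 3 compounds from U share the U arrays and are set side by side here. For PSAT1 they were 0.79 (A1), 0.96 (A2) and 1.01 (A3). In the same order DDIT3 was 0.68, 0.93 and 0.91 above U, AARS1 0.63, 0.86 and 0.86, and CHAC1 0.91, 0.84 and 0.87. ATF4 was 0.44, 0.69 and 0.51 above. ASNS was 0.78 above U with A1 but 0.05 with A2 and -0.057 with A3, and over the list the median was 0.47 with A1, 0.052 with A2 and 0.08 with A3. LRRC61 was higher with both inhibitors than with A1, by 0.71 and 0.95 (limma adjusted p over both pairs 2.76e-04 and 1.56e-05), at means of 202.4 and 240.4 near the 221.3 of U. MEAK7 and ZNF395, below U with A1, were also higher with both inhibitors than with A1, MEAK7 by 1.90 and 2.10 and ZNF395 by 0.73 and 1.04. Other genes that were lower with A1 lay below U with both inhibitors as well. In the order A1, A2 and A3, RRBP1 differed from U by -0.85, -1.34 and -1.15 and SLC29A2 by -0.82, -1.07 and -1.07. NDRG1 differed by -0.40, -1.50 and -1.37.

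A further comparison of control groups in TS cells shares no array with A1 and U. TS cells with the mutated control hairpin A5M plus doxycycline (1 microg/ml) for 84 h stood against TS cells with the ALK hairpin A5 but no doxycycline, 3 arrays each, so that hairpin and doxycycline cannot be told apart there. Of the same 32 ATF4 list genes 17 were called higher with A5M and 1 lower, against 3.24% and 3.75% of 9101 genes tested in that fit, and the median difference was 0.39. Without overlap, 20 lay above and 1 below, against 9.08% and 9.42% of genes. TRIB3 read 323.7, 276.7 and 301.8 without doxycycline and 607.4, 681.2 and 859.4 with A5M (1.21 ± 0.11 SE), CHAC1 differed by 1.43 ± 0.23, ASNS by 0.80 ± 0.11 and PSAT1 by 0.51 ± 0.12. ATF4 itself, at 0.15, and DDIT3, at 0.13, did not pass there, and DDIT4 was lower (-0.89). Of 33 glycolysis and hypoxia genes 17 were called lower with A5M and 0 higher, with a median of -0.39. ZNF395 read 965.3, 779.4 and 1018 without doxycycline and 146.5, 188.3 and 182.7 with A5M (-2.34 ± 0.11), and ANGPTL4 differed by -2.49 ± 0.21 and PFKFB4 by -1.46 ± 0.38. LRRC61, which fell with A1, differed by -0.045 ± 0.13.

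**Figure D5:**
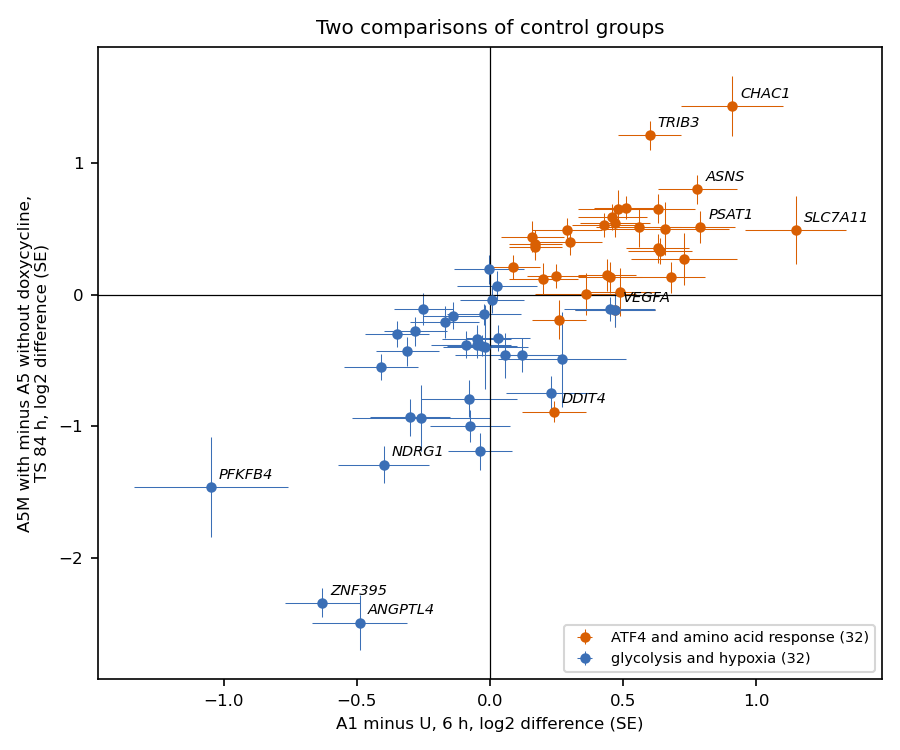
Log2 difference of A1 minus U (horizontal) and of A5M with doxycycline minus A5 without (vertical), with SE bars, for 32 ATF4 list genes and 32 glycolysis and hypoxia genes, VEGFA being in both. TRIB3 (0.60 and 1.21) and CHAC1 (0.91 and 1.43) lie high on both axes, ZNF395 (-0.63 and -2.34) lies low on both, and DDIT4 (0.24 and -0.89) is above 0 on one and below on the other.

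RNA quality was read from the array's control probe sets beside these results. The ratio of 3' to 5' signal of ACTB was 1.33 ± 0.07 in A1 and 1.18 ± 0.12 in U (SD, n = 3 per group; exact permutation test, two-sided, p 0.20, the smallest possible being 0.10). That of GAPDH was 0.98 ± 0.10 and 1.00 ± 0.04 (exact permutation p 0.70). With the ACTB ratio as a covariate no gene was called between A1 and U (limma; 635 at an unadjusted p below 0.05), and 22 of the 32 ATF4 list genes, in place of 25, were higher at an unadjusted p below 0.05.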

How the data were processed

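Expression was measured in 33 samples on HG-U133A arrays. The deposited intensity values are MAS5 signals that the authors made, per the submitters' processing notes; its version is not given in the sources used here. Trimmed means (2% at each end) were 200.06 to 200.08, which shows the arrays were scaled to a common level, so a change in total RNA cannot be seen. Of 22283 probe sets, 68 controls were removed; 19065 had 1 gene symbol, 1043 several and 2107 none, and the last 2 kinds stayed unnamed. The gene table used for names was GRCh38.p14, matched by 19053.

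Values were taken as log2(signal + 11), 11 being the 20th percentile (10.8) rounded. Probe sets at their array's 40th percentile or above on at least 3 arrays were kept (14578), and the brightest per gene was used, leaving 8594 genes. A limma 3.58.1 model (R 4.3.3; eBayes with trend, two-sided) was fitted to the 12 arrays of U, A1, A2 and A3, with 8 residual and 8.80 prior degrees of freedom. The 21 hairpin arrays were fitted apart. The number of arrays limits the precision. The fit was tested on simulated data. Figures used matplotlib 3.10.9 in Python 3.11.15.

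The main fit did not pair A1 and U arrays by replicate number. Deviations from the group means correlated at 0.108, -0.066 and -0.206 between arrays of the same number. Between arrays of different numbers the range was -0.289 to 0.331. These values cannot show whether arrays of the same number shared a culture or batch. The named genes were ALK, NPM1, CEBPB and BCL2A1, then in each direction up to 12 genes without overlap, called genes first and then by p, and from each of 30 lists up to 3 called members or else 2 with the largest difference. Not every gene so named is printed. The members and lists were chosen with earlier results of these data known. The ATF4 and glycolysis lists in full, the inhibitor-responsive genes, PKM, NDRG1, MT1H, NQO1, HMOX1, HERPUD1, EIF2AK3, HSPA5, CYP1A1 and the promoter motif were added after values were seen. No test of whole lists was made.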

Additional observations from a re-analysis of the deposited data

How the results depend on the processing

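The calls between A1 and U, 3 genes (2 higher and 1 lower), changed with many settings. No gene was called with only the 6 arrays compared in the fit, with no filter on low values or with the 3' to 5' ratio of ACTB as covariate (limma, 0 higher and 0 lower each; 624, 963 and 635 genes at an unadjusted p below 0.05). Quantile normalization gave 1 (0 higher), the filter at the 60th percentile and eBayes without trend 1 higher each, every probe set on its own 6 (4 higher, 2 lower), and the mean of a gene's probe sets 10 (7 higher, 3 lower). Leaving out 1 array gave 0 to 4 genes, 0 to 1 higher and 0 to 3 lower. With the replicate block the count stayed 3, but CARS1 took the place of SLC7A11 (adjusted p 0.0731).

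The adjusted p of SLC7A11 (limma) was 0.202 with the 6 arrays (difference 1.15), 0.109 without filter (1.15), 0.0593 with quantile normalization (1.14) and 0.205 with the covariate (0.96), and the difference was 1.03 to 1.31 with 1 array left out. For PSAT1 these were 0.201 (0.79), 0.0905 (0.79), 0.0593 (0.78) and 0.134 (0.83), with 0.180 without trend (0.79), and 0.67 to 0.91 with 1 array left out. For LRRC61 they were 0.201 (-0.84) with the 6 arrays, 0.0726 (-0.84) without filter and 0.134 (-0.85) with the covariate, and -0.86 to -0.82 with 1 array left out. SLC7A11 was not tested with the filter at the 60th percentile.

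Every probe set on its own gave 4608 calls for A2 against A1, 4555 for A3 against A1, 4936 for A2 against U and 4743 for A3 against U; the covariate gave 1354 and 1452 for A2 and A3 against A1. The ATF4 list kept a median of 0.42 to 0.50, and 20 to 25 of its genes were higher at an unadjusted p below 0.05. The glycolysis list kept a median of -0.13 to -0.03, and with 1 array left out 5 to 8 of its genes were lower. The GAPDH ratio differed by -0.082 to 0.0092 with 1 array left out. Of the 79 named genes, 6 changed sign under a setting, none of them called: ALK, FGFR2, CCR8, HLA-DPB1, CD79A and ITGAM, in 11 of 1396 values. The alternatives for the list counts were chosen after seeing the data. The causes of these shifts were not tested.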
